A study of Mus musculus with 16 samples.

Results

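The regions described here are dense clusters of open chromatin in mouse germinal center B cells. A peak of the deposited count table was called dense when at least 10 other peaks had their middle within 25 kb on either side of its own middle on the same chromosome. The rule found 11770 dense peaks among 82188 peaks, or 14.32%. Their overlapping windows merged into 1181 clusters, which also took in 9359 peaks that were not dense themselves and left 61059 peaks outside. The rule used positions alone and no accessibility value, but the peaks were called on libraries of this series and the caller was not given in the sources used here. The CB libraries were sampled about an order of magnitude more deeply than the CC libraries, and whether they contributed more of the peaks that make a neighbourhood dense was not tested.

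Accessibility was measured by Omni-ATAC, in which a transposase cuts DNA where it is not wrapped in nucleosomes and the cut fragments are sequenced. Spleen cells of C57BL/6 mice aged 8 to 10 weeks gave 16 libraries, 4 in each of 4 groups. These are Smarca4+/- cells labelled CC (HET CC), Smarca4+/+ cells labelled CC (WT CC), Smarca4+/- cells labelled CB (HET CB) and Smarca4+/+ cells labelled CB (WT CB). The labels do not spell out CC and CB, which are read here as centrocytes and centroblasts, and give neither a sort gate nor the part of Smarca4 that is deleted nor a Cre driver. They also do not say that replicates came from separate mice, so the p-values measure the spread between these libraries, which may be technical.

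Germinal centers are the sites where activated B cells mutate their antibody genes and are selected for affinity. Centroblasts divide and mutate in the dark zone, and centrocytes test their receptors in the light zone and take help from T cells. Genes that define a cell type are often surrounded by many closely spaced regulatory elements, and such neighbourhoods are bound by many transcription factors at once. Smarca4 encodes BRG1, the ATPase of the BAF complex, which slides and evicts nucleosomes and keeps distal regulatory elements open.

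Library totals in the peaks ran from 5310327 to 7474760 counts in HET CC, 3494356 to 3750936 in WT CC, 38716281 to 51011923 in HET CB and 31696941 to 38798802 in WT CB. Pearson correlations between replicates were 0.929 to 0.95 in HET CC, 0.909 to 0.914 in WT CC, 0.992 to 0.995 in HET CB and 0.989 to 0.994 in WT CB. All 10 B cell marker genes had a peak, with summed values of 1210 to 1306 CPM in HET CC, 1207 to 1374 in WT CC, 1406 to 1424 in HET CB and 1432 to 1499 in WT CB. CPM is the usual count scaled to a common library total, here after scaling by trimmed mean of M-values (TMM). Of 19 T cell markers 17 had a peak (Cd28 and Lck had none), and their summed values were 617.6 to 746.8 CPM in HET CC, 762.1 to 856.4 in WT CC, 445.1 to 455.9 in HET CB and 461.8 to 469.3 in WT CB. NK cell markers (10 of 10 with a peak) had 296.8 to 309.2 CPM in HET CC, 313.2 to 363.4 in WT CC, 250.4 to 253.5 in HET CB and 248.1 to 256.0 in WT CB. Stromal and follicular dendritic markers (9 of 11, none for Fdcsp and Cxcl13) had 287.0 to 312.6 CPM in HET CC, 324.9 to 378.0 in WT CC, 229.0 to 243.6 in HET CB and 231.5 to 251.1 in WT CB. Myeloid markers (11 of 15, none for Lyz2, Mpo, Elane and S100a8) had 492.5 to 559.9 CPM in HET CC, 490.2 to 518.5 in WT CC, 366.0 to 372.8 in HET CB and 367.2 to 391.0 in WT CB. The values of these 4 lists were thus higher in CC than in CB. Those of T cell, NK cell and stromal markers were lower in HET CC than in WT CC without overlap. Erythroid and megakaryocyte markers (4 of 9 with a peak) went the other way between CC and CB. They had 127.2 to 151.6 CPM in HET CC, 114.4 to 131.6 in WT CC, 159.9 to 168.0 in HET CB and 150.9 to 163.5 in WT CB. The part of all these markers in the results below was not tested.

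The promoters of 5 genes inside clusters are shown first, because the peaks on them moved with cell type or genotype in ways that the whole cluster did not always share. The sequences are RefSeq promoter windows of GRCm38.p6, from 250 bases before to 50 bases after a gene start, read 5′ to 3′ on the gene's strand. Capitals mark matches, on either strand, to GGGCGG (the SP/KLF motif), CGGAAG (the ETS motif), CCAAT (the CCAAT box) and TGACGTCA (the cAMP response element, CRE). The 5 genes were chosen after their values had been seen. The Gcsam window is chr16:45610190-45610489 on the plus strand, the S1pr2 window chr9:20976744-20977043 on the minus strand, the Gpr183 window chr14:121965144-121965443 on the minus strand, the Eif2ak3 window chr6:70844265-70844564 on the plus strand and the Smarca4 window chr9:21615919-21616218 on the plus strand.
Gcsam: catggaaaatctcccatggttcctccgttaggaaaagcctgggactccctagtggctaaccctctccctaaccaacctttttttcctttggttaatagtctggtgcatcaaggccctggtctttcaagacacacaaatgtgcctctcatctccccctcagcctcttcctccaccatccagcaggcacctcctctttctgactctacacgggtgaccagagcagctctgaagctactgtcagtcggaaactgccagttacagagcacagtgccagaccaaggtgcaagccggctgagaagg
S1pr2: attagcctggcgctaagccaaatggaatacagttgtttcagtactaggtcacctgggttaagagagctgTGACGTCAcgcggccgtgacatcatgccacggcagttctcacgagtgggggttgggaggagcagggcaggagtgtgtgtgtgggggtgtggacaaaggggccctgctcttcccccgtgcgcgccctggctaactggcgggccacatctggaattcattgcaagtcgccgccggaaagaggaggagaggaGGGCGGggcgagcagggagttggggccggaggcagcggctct
Gpr183: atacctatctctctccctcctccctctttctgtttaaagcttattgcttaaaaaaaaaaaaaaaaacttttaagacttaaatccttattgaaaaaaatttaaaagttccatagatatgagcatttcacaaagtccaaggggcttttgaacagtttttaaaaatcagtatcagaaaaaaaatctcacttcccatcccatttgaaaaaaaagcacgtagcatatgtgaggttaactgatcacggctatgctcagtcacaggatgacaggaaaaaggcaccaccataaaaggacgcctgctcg
Eif2ak3: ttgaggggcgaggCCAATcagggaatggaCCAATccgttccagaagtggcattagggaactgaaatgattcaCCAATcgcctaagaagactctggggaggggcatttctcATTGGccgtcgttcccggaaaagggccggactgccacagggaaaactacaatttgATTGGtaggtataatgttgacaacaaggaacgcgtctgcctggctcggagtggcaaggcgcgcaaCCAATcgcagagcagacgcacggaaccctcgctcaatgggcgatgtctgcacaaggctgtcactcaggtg
Smarca4: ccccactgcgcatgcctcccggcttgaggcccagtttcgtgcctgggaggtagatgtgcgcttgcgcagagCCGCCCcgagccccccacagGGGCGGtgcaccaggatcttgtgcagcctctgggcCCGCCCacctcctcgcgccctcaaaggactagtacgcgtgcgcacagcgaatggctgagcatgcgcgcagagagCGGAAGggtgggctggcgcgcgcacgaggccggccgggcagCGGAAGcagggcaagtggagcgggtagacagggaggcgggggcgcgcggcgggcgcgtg

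Gcsam encodes an adaptor that limits the movement of germinal center B cells. The dense peak that covers its whole promoter window had 19.6, 18.3, 17.0 and 27.9 CPM in HET CC and 8.34, 14.4, 13.2 and 12.9 in WT CC. It had 35.3, 35, 35.9 and 36.2 CPM in HET CB and 33.4, 37.0, 35 and 37.1 in WT CB. Every HET CC library lay above every WT CC library, and both CC groups lay below both CB groups. The log2 change was 0.77 in HET CC against WT CC (SE 0.153, adjusted p = 0.00495), with an interaction of 0.77 (SE 0.17, adjusted p = 0.033). The adjusted p-values are from edgeR's quasi-likelihood test with Benjamini-Hochberg adjustment over all 82188 peaks, and the interaction is the HET effect in CC minus the HET effect in CB. None of the 4 motifs stands in the letters of this window.

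Gpr183 encodes a receptor for oxysterols that guides B cells within the follicle. The peak over 261 bases of its window had 19.6, 12.7, 15.1 and 11.5 CPM in HET CC, 23.6, 27.7, 24.2 and 23.3 in WT CC, 9.17, 11.2, 10.4 and 10.2 in HET CB and 10.8, 10.6, 11.9 and 10.8 in WT CB. It was higher in CC than in CB in both genotypes (log2 0.50 in HET, adjusted p = 0.000474, and 1.16 in WT, adjusted p = 3.28e-11) without overlap of libraries. It was lower in HET CC than in WT CC (-0.76, SE 0.146, adjusted p = 0.00375), and its interaction did not pass (-0.66, adjusted p = 0.086). The window is rich in A and T, with 35.3% G and C, and none of the 4 motifs was found in it.

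S1pr2 encodes a sphingosine-1-phosphate receptor that confines germinal center B cells. Its window holds a CRE and an SP/KLF match, and the peak on it was lower in CC (log2 -0.54, adjusted p = 5.7e-06, in HET and -0.86, adjusted p = 3.82e-08, in WT). Eif2ak3 encodes PERK, a sensor of stress in the endoplasmic reticulum. Its window holds 6 CCAAT boxes, and the peak covers the first 182 bases of the window, without the last of the boxes. The peak was higher in CC (0.48, adjusted p = 1.48e-09, in HET and 0.74, adjusted p = 3.29e-14, in WT). For both genes HET CC against WT CC did not pass (S1pr2 0.35, adjusted p = 0.192, and Eif2ak3 -0.20, adjusted p = 0.112).

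The Smarca4 gene lies in a small cluster of 3 dense peaks among 12. Its summed peaks had 178.4, 199.3, 194.6 and 191.2 CPM in HET CC, 190.4, 194.6, 195.1 and 219.2 in WT CC, 216.9, 227.2, 218.2 and 219.5 in HET CB and 242.9, 226.6, 241.7 and 219.4 in WT CB. In this sum the genotypes overlapped in both cell types (log2 -0.07 in CC, adjusted p = 0.455, and -0.08 in CB, adjusted p = 0.413). With the deleted part unknown, these peaks do not check the genotype labels. The promoter peak, with 3 SP/KLF and 2 ETS matches in the window, was higher in CC (0.67, adjusted p = 4.53e-12, in HET and 0.76, adjusted p = 9.93e-13, in WT), while the cluster sum was lower in CC (-0.21, adjusted p = 0.000122, in HET and -0.22, adjusted p = 0.000131, in WT). Summed over the 3 dense peaks alone, the Smarca4 value turned to a rise (0.45 in HET and 0.48 in WT). Between genotypes the promoter peak did not pass in either cell type. It had 37.5, 37.1, 35.8 and 34.8 CPM in HET CB and 42.1, 39.4, 42.0 and 39.2 in WT CB, without overlap (log2 -0.17, adjusted p = 0.365). In CC the libraries overlapped (-0.26, adjusted p = 0.0752).

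The clusters were 50 to 345.0 kb wide, with a median of 74.84 kb, and covered 97.53 Mb. They held a median of 9 dense peaks (at most 78) and 11 to 92 peaks in all, and 126 clusters rested on 1 dense peak. Dense peaks were more accessible than others, with a median over libraries and peaks of 11.78 CPM against 5.455 CPM outside the clusters. Of dense peaks 16.45% had their middle within 1 kb of a transcription start site (TSS), against 22.44% of peaks outside. By chromosome the dense share of peaks was highest on chromosome 10, at 19.38%, and lowest on the X chromosome, at 5.999%. Peaks just inside the rule, with exactly 10 others, numbered 3275, and peaks just outside it, with exactly 9 others, numbered 4080, with median accessibilities of 10.27 and 9.885 CPM.

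The cluster with most dense peaks surrounds S1pr4 on chr10:81260840-81605882 and holds 24 genes, among them Gna15 and Tle5. The next surrounds Gpr183, Gpr18 and Ubac2 on chr14:121869690-122091456, with 70 dense peaks. The others of the 10 largest lie at Foxp1 (52 dense peaks), the histone and butyrophilin genes around H2bc6 (50), Ets1 (45), Irf8 (43), Zfp217 (42), Eif2ak3 (40), Lrch1 (39) and Cxxc5 (39). Foxp1, Ets1 and Irf8 encode transcription factors of B cells. In all, 65 clusters held no gene span, 713 held 1 or 2 genes and 403 held 3 or more.

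Of 21627 protein-coding genes 2945, or 13.62%, overlapped a cluster, and the share differed between the gene lists. Of 18 receptors and adaptors of B cell positioning and exit 17 lay in clusters (Cxcr5, Ccr7, S1pr1, S1pr2 and Gpr183 among them), and 22 of 26 genes of B cell receptor signaling (Cd79a, Btk, Syk and Plcg2 among them). So did 24 of 30 transcription factors of B cell identity, 19 of 26 light zone genes, 7 of 10 B cell markers and 16 of 25 germinal center genes. The shares were lower for the dark zone genes (4 of 16), plasma cell genes (6 of 17), BAF subunits (11 of 29) and tumor suppressors of B lymphoma (12 of 25). Of markers of other cells, 4 of 19 T cell, 2 of 10 NK cell, 4 of 15 myeloid, 3 of 9 erythroid and megakaryocyte and 0 of 10 stromal genes lay in clusters. These counts are descriptions, since the lists were chosen with earlier results of these data known and hold long and short genes.

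Dense peaks lost accessibility in CC more often than they gained it, in both genotypes. In HET cells 2427 dense peaks were higher and 4917 lower in CC than in CB at an adjusted p below 0.05, which is 62.4% of dense peaks beside 58.8% of all peaks (30.8% higher and 28.1% lower). In WT cells 2587 were higher and 4816 lower, or 62.9% of dense peaks beside 57.9% of all peaks (30.2% higher and 27.7% lower). Over all peaks the directions were nearly even, with 25301 higher and 23058 lower in HET and 24850 higher and 22729 lower in WT. The median log2 change of dense peaks was -0.174 in HET and -0.203 in WT, against 0.002 and -0.007 over all peaks. In both genotypes 2045 dense peaks were higher in CC and 4125 were lower, and 2 moved in opposite directions. In bulk libraries a smaller number of cells with an open element and a less open element in every cell cannot be told apart.

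The change fell stepwise with the number of neighbours. Peaks with no other peak within 25 kb had median log2 changes of 0.534 in HET and 0.47 in WT, with 52.27% and 46.29% of them higher in CC. Peaks with 15 or more others had medians of -0.237 in HET and -0.274 in WT, with 48.07% and 46.41% of them lower in CC. Peaks with exactly 10 and exactly 9 others had similar medians, of -0.159 and -0.124 in HET and -0.18 and -0.138 in WT.

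**Figure D1:**
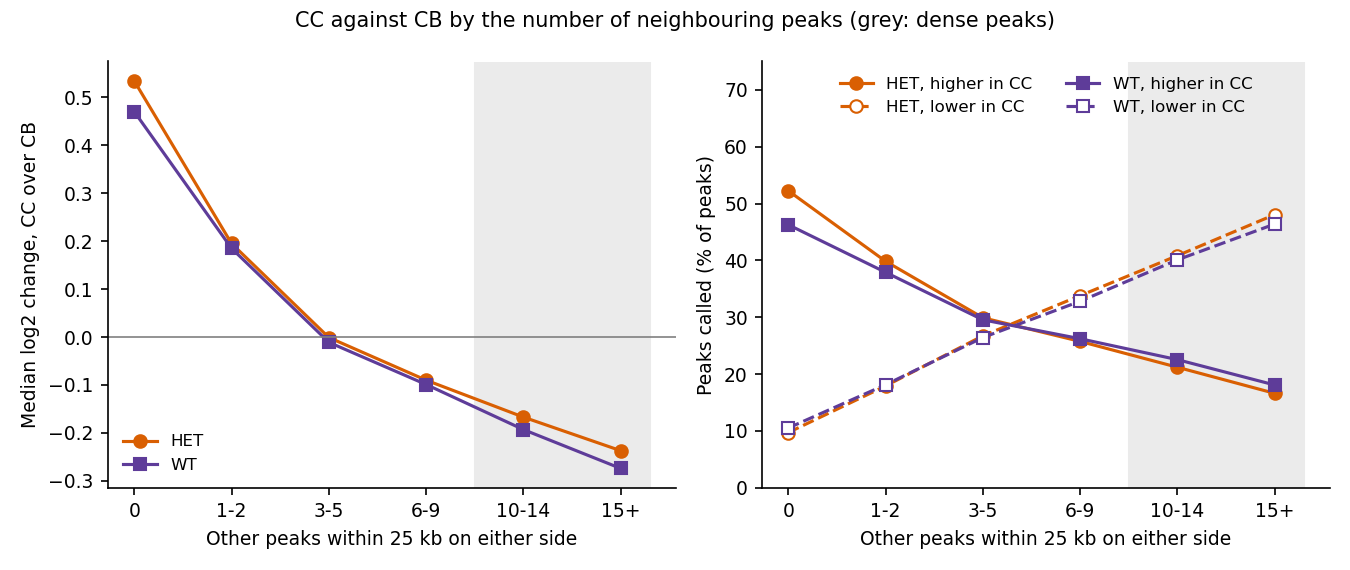
CC against CB for peaks binned by the number of other peaks within 25 kb on either side (x axis), with the median log2 change on the left and the percent of peaks called higher (filled, solid) or lower (open, dashed) at an adjusted p below 0.05 on the right, for HET and WT. The median falls from bin to bin in both genotypes, from above 0 for isolated peaks to -0.237 in HET and -0.274 in WT for peaks with 15 or more others.

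Peaks with few neighbours were also weak peaks, so the change was read within 5 equal bins of accessibility, cut on the mean CPM of all peaks over all libraries. In the weakest bin the 600 dense peaks had positive medians as well, with log2 changes of 0.542 in HET and 0.551 in WT, against 0.629 and 0.576 for peaks outside the clusters. In the middle bin dense peaks had medians of -0.242 in HET and -0.318 in WT, against -0.053 and -0.113 outside. In the strongest bin they had -0.092 in HET and -0.054 in WT, against 0.015 and 0.091 outside. Dense peaks were below outside peaks in each of the 5 bins and in both genotypes, and the gap was narrowest in the weakest bin of WT.

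The share of a library's counts that fell in cluster windows gave the same direction with 1 value per library. It was 30.13, 30.01, 30.22 and 30.23% in HET CC, 29.97, 29.80, 29.88 and 30.19% in WT CC, 32.35, 32.37, 32.32 and 32.37% in HET CB and 32.75, 32.35, 32.85 and 32.42% in WT CB. All 8 CC libraries lay below all 8 CB libraries, while the genotypes overlapped within each cell type. The means were 30.15 ± 0.104% in HET CC and 32.35 ± 0.02305% in HET CB (SD, n = 4), a difference of -2.20 points. They were 29.96 ± 0.167% in WT CC and 32.59 ± 0.245% in WT CB, a difference of -2.63 points. An exact two-sided permutation test gave p = 0.02857 for each, the smallest that 4 against 4 libraries allow, and 0.0476 after adjustment over the 5 comparisons. Leaving out any 1 library kept the difference between -2.23 and -2.16 points in HET and between -2.71 and -2.55 in WT, with the CC libraries below the CB libraries throughout. With so few libraries the adjusted exact p stayed near the threshold, and was 0.05306 without HET CB replicate 3 in HET and 0.0517 without WT CC replicate 2 in WT. Both equal the adjusted exact p of the interaction in the same setting, given below, since the 5 p-values were adjusted together. They do not reflect a weaker difference between CC and CB. HET against WT gave exact p = 0.1143 in CC and in CB. Without WT CB replicate 2, the difference of HET CB against WT CB was -0.322 points, with an adjusted exact p of 0.03571. The interaction was 0.428 points (exact permutation p = 0.01306, adjusted 0.0476), and it did not hold without peaks within 1 kb of a gene end (0.265 points, adjusted exact p = 0.3153). It was 0.375 points without WT CC replicate 2 (adjusted exact p = 0.0517) and 0.418 without HET CB replicate 3 (0.05306). Counting error is small beside these differences, with 95% Wilson intervals that reach at most 0.048 points to either side.

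The share of counts in distal dense peaks was lower in CC, and that in promoter dense peaks was above CB in every CC library but did not pass after adjustment. Dense peaks farther than 1 kb from a TSS took 12.03 ± 0.113% of counts in HET CC and 13.78 ± 0.0316% in HET CB, and 11.74 ± 0.147% in WT CC and 13.94 ± 0.117% in WT CB (SD, n = 4). Dense peaks within 1 kb of a TSS took 5.089 ± 0.106% in HET CC and 4.883 ± 0.028% in HET CB, and 5.253 ± 0.0473% in WT CC and 4.891 ± 0.0671% in WT CB. All CC libraries lay below all CB libraries in the distal share and above them in the promoter share. The exact permutation p was 0.02857 for each of these 4 differences, 0.0357 adjusted for the distal and 0.0714 for the promoter share. The distal share was 0.296 points higher in HET CC than in WT CC (exact p = 0.02857, adjusted 0.0357), and its interaction was 0.455 points (exact permutation p = 0.000816, adjusted 0.00408). Leaving out 1 HET CC library gave 0.245 to 0.325 points, with HET CC (at least 11.94%) still above WT CC (at most 11.93%); the exact p of 3 against 4 libraries was then 0.05714, or 2 of 35 splits. Tested one by one between CC and CB, distal dense peaks gave 1867 higher and 4166 lower calls in HET (median log2 change -0.206) and 1918 higher and 4141 lower calls in WT (-0.258). Dense peaks within 1 kb of a TSS were nearly even, with 519 higher and 582 lower in HET (-0.039) and 620 higher and 514 lower in WT (0.011). Distal peaks outside the clusters went the other way, with 15938 higher and 10785 lower in HET (0.096) and 14727 and 11317 in WT (0.053). Outside peaks within 1 kb of a TSS were also nearly even in HET, with 3939 higher and 3742 lower (-0.008). In WT 4531 of them were higher and 3078 lower (0.047).

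**Figure D2:**
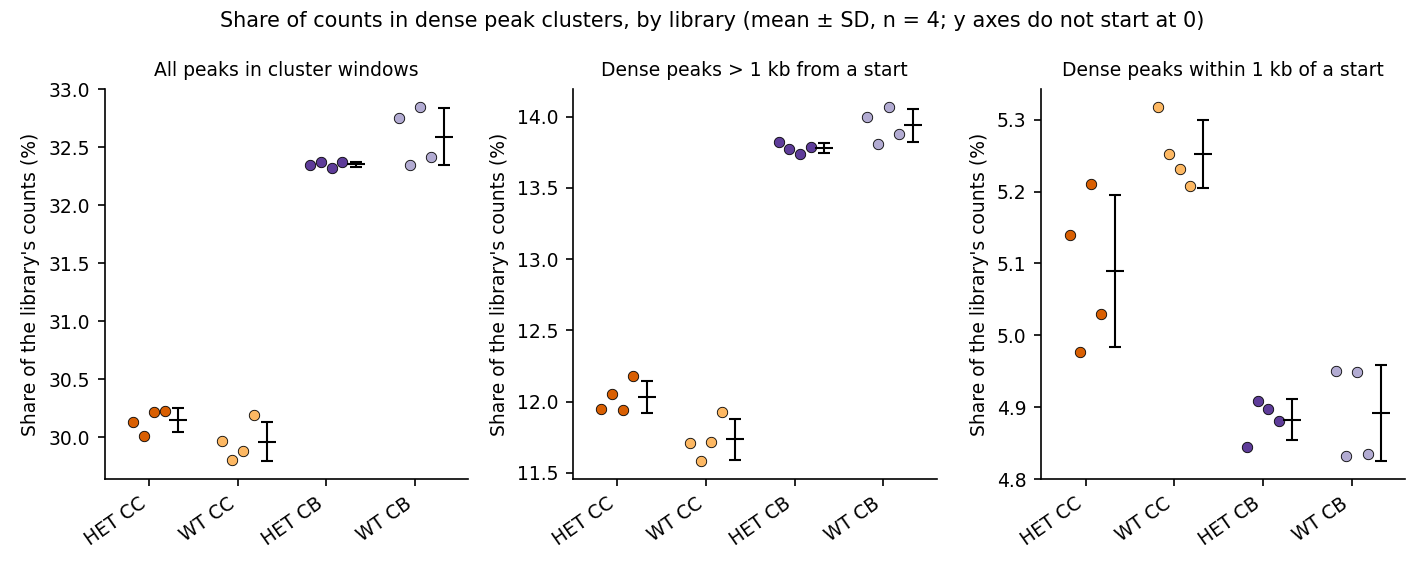
Percent of each library's counts in all peaks of the cluster windows (left), in dense peaks farther than 1 kb from a gene start (middle) and in dense peaks within 1 kb of one (right), with points for the 4 libraries of each group and the mean ± SD beside them. The y axes do not start at 0; CC libraries are lowest in the left and middle panels and highest in the right panel.

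Summed over all its peaks, a cluster was tested as 1 locus beside 8341 loci made the same way from the peaks outside. In HET cells 257 clusters were higher and 622 lower in CC than in CB (74.4% of clusters beside 70.0% of all loci, of which 45.5% higher and 24.4% lower). In WT cells 331 were higher and 582 lower (77.3% beside 70.6% of all loci, 46.4% higher and 24.2% lower). Loci outside went mostly the other way, with 4077 higher and 1706 lower in HET (69.3% called) and 4091 higher and 1718 lower in WT (69.6% called). In both genotypes 244 clusters were higher and 547 lower in CC, and 1 moved in opposite directions. Clusters without a gene span had a median log2 change of -0.195 in HET and -0.262 in WT, and clusters with 3 or more genes -0.053 and -0.028.

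Among the named clusters with the largest rises in CC, Sntb1, S100a3, Slc12a7, Prkcq and a cluster without a gene near Ifngr1 were higher in all CC libraries than in all CB libraries of their genotype. The cluster in Sntb1, which encodes a syntrophin that anchors membrane proteins, had 80.15, 52.77, 71.74 and 48.11 CPM in HET CC and 11.65, 8.72, 10.11 and 8.79 in HET CB. It had 88.10, 88.91, 92.17 and 91.12 CPM in WT CC and 13.84, 17.54, 15.29 and 18.24 in WT CB. The CC libraries lay far above the CB libraries in both genotypes, with log2 changes of 2.68 (SE 0.126, adjusted p = 3.2e-17) in HET and 2.47 (SE 0.126, adjusted p = 1.87e-16) in WT. The cluster of S100a2 to S100a6, which encode calcium-binding proteins, rose by 2.20 in HET and 2.31 in WT. The cluster near Ifngr1 rose by 1.89 and 2.03 and that of Slc12a7, a potassium and chloride cotransporter, by 1.71 and 1.80. Prkcq, a protein kinase C best known from T cells, rose by 1.45 and 1.68, and all but 1 of its 12 dense peaks passed in HET and all in WT. The summed T cell, NK cell, myeloid and stromal marker values given above moved the same way as these clusters. Those of erythroid and megakaryocyte markers moved the other way. The part of these markers in the clusters was not tested.

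Named clusters with large falls in CC held Ccdc190, Tox2, Gcsam, Serinc5 and Zbtb20, and 2 held no gene. The Ccdc190 cluster fell by 1.31 in HET and 1.51 in WT, and that of Serinc5, a multipass membrane protein, by 1.06 and 1.31. Tox2, an HMG-box transcription factor, fell in CC by 0.97 in HET (adjusted p = 6.63e-15) and by 1.49 in WT (adjusted p = 9.04e-18). Gcsam fell by 0.94 and 1.44, and Zbtb20, a transcription factor of plasma cells, by 0.82 and 1.23. All 22 dense peaks of the Zbtb20 cluster passed as lower in both genotypes. Fas, a death receptor, fell by 0.51 and 0.99, and Gpr55, a lysophospholipid receptor, by 0.65 and 1.13. A cluster near Thoc3 without a gene span fell by 1.08 and 1.17. Another 130582 bp from Lmo4, with no gene span in it, had 105.0 ± 19.97 CPM in HET CC and 233.8 ± 11.03 in HET CB, and 86.26 ± 5.918 in WT CC and 227.7 ± 26.11 in WT CB (SD, n = 4).

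**Figure D3:**
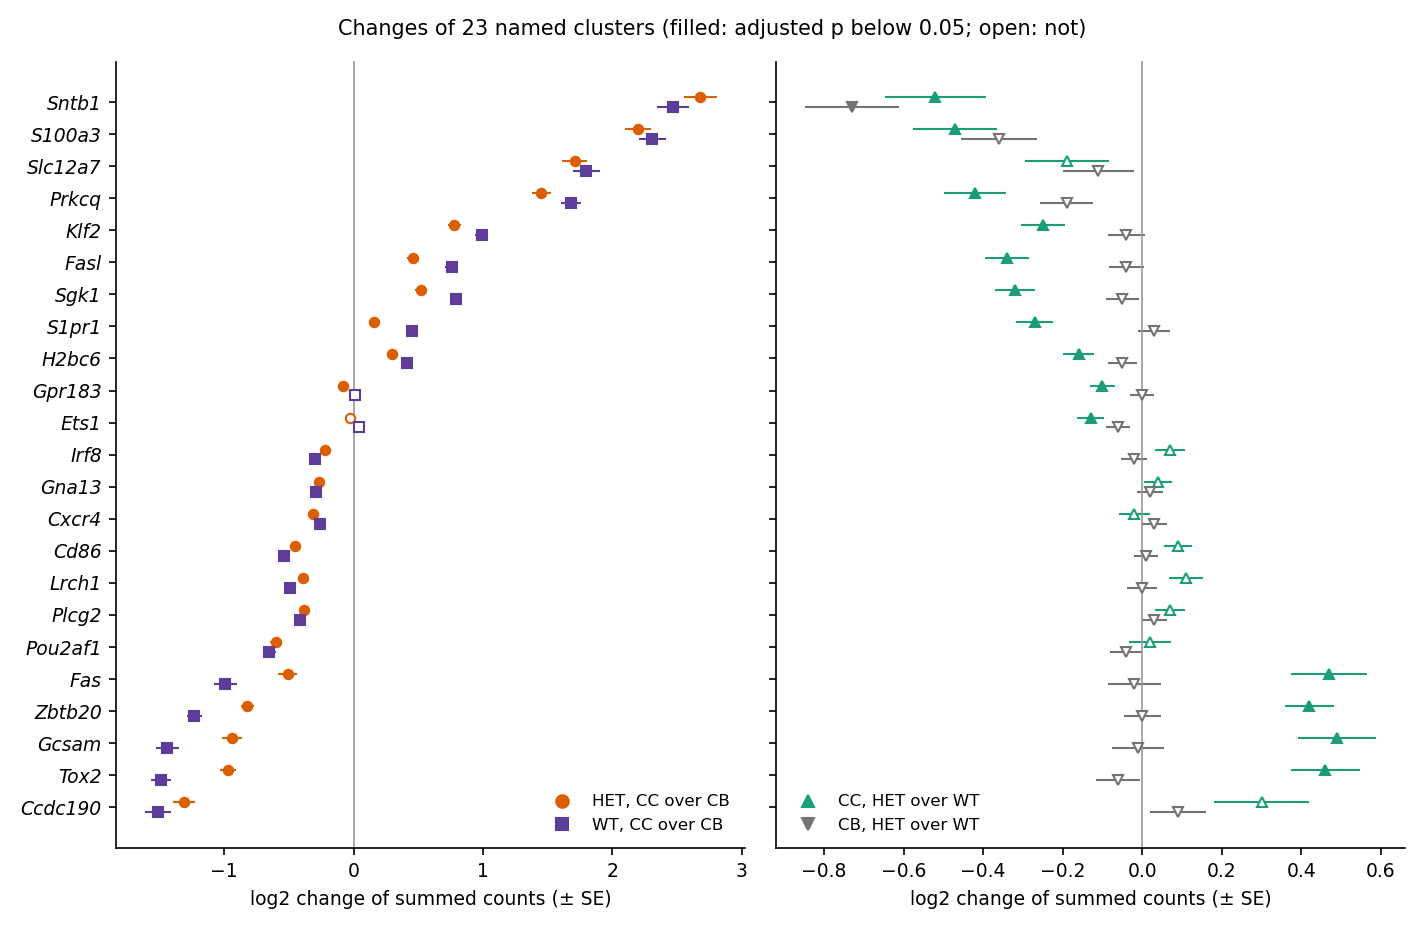
log2 changes of summed counts of 23 named clusters (rows, by a gene inside) with standard errors, for CC over CB in HET and WT (left) and for HET over WT in CC and CB (right), filled where the adjusted p was below 0.05. The clusters at the top rose in CC and those at the bottom fell; in CC the HET over WT values are below 0 for Sntb1 and above 0 for Gcsam and Tox2.

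The counts by function stand beside those of all 1181 clusters, of which 52.67% were lower and 21.76% higher in HET, and 49.28% lower and 28.03% higher in WT, with median log2 changes of -0.111 and -0.097. Of 23 clusters of B cell receptor signaling 17 were lower and 2 higher in HET (median -0.227), a split further to the lower side than that of all clusters. In WT 13 were lower and 6 higher (-0.19), a split near that of all clusters. Plcg2, the phospholipase behind the receptor, fell by 0.38 in HET and 0.41 in WT, Rasgrp3 by 0.49 and 0.67, and Blk by 0.39 and 0.41. B cell identity factors had 17 of 27 clusters lower and 5 higher in HET (median -0.153), and 16 lower and 4 higher in WT (-0.147), not far from all clusters. Pou2af1, a coactivator of the octamer factors needed for germinal centers, fell by 0.60 and 0.65. Of 16 germinal center clusters 13 were lower and 3 higher in HET (median -0.262), and 12 lower and 2 higher in WT (-0.315). Gna13, the G protein subunit that acts under S1pr2, fell by 0.27 and 0.29.

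Light zone genes did not lie in clusters of 1 direction, with 9 of 19 lower and 5 higher in HET and 8 lower and 5 higher in WT. These splits are not far from those of all clusters (52.67% lower and 21.76% higher in HET, 49.28% and 28.03% in WT). Cd86, a ligand for T cell help, had 398.0, 409.1, 416.1 and 429.5 CPM in HET CC and 556.9, 566.1, 560.3 and 575.5 in HET CB. It had 386.3, 380.4, 383.6 and 397.9 CPM in WT CC and 575.4, 545.2, 574.7 and 550.8 in WT CB. All CC libraries lay below all CB libraries (log2 -0.45, adjusted p = 2.6e-14, in HET and -0.54, adjusted p = 1.09e-15, in WT), although Cd86 is a light zone marker at the protein level. Nfkbia, the inhibitor of NF-kB, rose by 0.34 and 0.59 as a whole cluster, while its 4 dense peaks alone gave -0.42 (adjusted p = 1.6e-05) in HET and -0.15 (adjusted p = 0.125) in WT. Ccnd2 rose by 0.66 and 0.82 and Myc by 0.24 and 0.45. Cxcr4, the receptor that draws cells to the dark zone, fell by 0.31 and 0.26.

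Positioning receptors were also divided, with 9 of 17 clusters higher and 6 lower in HET (median 0.122) and 9 higher and 5 lower in WT (0.124), beside 21.76% higher and 52.67% lower of all clusters in HET and 28.03% and 49.28% in WT. Klf2, a factor that drives S1pr1, rose by 0.78 in HET and 0.99 in WT, and S1pr1, the exit receptor, by 0.16 and 0.45. The S1pr2 cluster fell by 0.25 and 0.34. Of 14 clusters with memory B cell genes 7 were higher and 6 lower in HET, and 8 higher and 5 lower in WT (medians 0.054 and 0.157). Of 6 with plasma cell genes 6 were lower in HET and 5 in WT; the Jchain cluster was lower as a whole (-0.26 in HET and -0.32 in WT) and higher over its 4 dense peaks alone (0.39 and 0.52). Of 13 BAF clusters 9 were lower in each genotype (medians -0.132 in HET and -0.191 in WT), among them Smarcb1 (-0.40 in HET and -0.44 in WT), Bcl7a and Arid1b.

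Clusters of tumor suppressor genes were lower in 7 of 13 and higher in 4 in each genotype, about the share of all clusters (52.67% lower in HET and 49.28% in WT). Markers of other cell types had few clusters, and they did not all rise. Of 4 T cell clusters, 1 was higher and 2 lower in HET, and 2 higher and 1 lower in WT. Tcf7, a T cell transcription factor, rose by 0.58 and 0.71, while the Cd247 cluster fell by 0.09 and 0.11. Of 2 NK cell clusters 1 was higher in each genotype, of 4 myeloid clusters 2 were higher in HET and 3 in WT, and of 3 erythroid and megakaryocyte clusters 2 were lower in each.

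Clusters often held dense peaks that moved in opposite directions. Of 807 clusters with 5 or more dense peaks, 545 in HET and 548 in WT held dense peaks called in both directions between CC and CB, and 188 in each genotype held at least 3 each way. Only lower calls were found in 200 clusters in HET and 195 in WT, and only higher calls in 59 and 63. The share of the variance of peak changes that lay between clusters was 27.28% in HET and 28.89% in WT, against 30.97% and 30.34% between loci outside.

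The Gpr183 cluster is an example. Its sum had 1176, 1099, 1184 and 1162 CPM in HET CC, 1204, 1253, 1171 and 1310 in WT CC, 1217, 1216, 1226 and 1239 in HET CB and 1239, 1218, 1221 and 1231 in WT CB. The CC and CB libraries overlapped in WT (log2 0.01, adjusted p = 0.823), yet 18 of the 70 dense peaks passed as higher and 19 as lower. In HET 18 were higher and 24 lower, with all CC libraries below the CB libraries (-0.08, adjusted p = 0.0138). Its extremes were a peak inside Ubac2 at chr14:121992478-121992978 with 14.46 ± 1.159 CPM in WT CC and 2.637 ± 0.506 in WT CB (SD, n = 4), and another inside Ubac2 at chr14:121904703-121905203 with 6.355 ± 1.133 and 19.43 ± 1.248 CPM in the same groups. Peaks that rose lay on both sides of the cluster's centre. The fall of the sum in HET was lost without HET CC replicate 2 (adjusted p = 0.0849).

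Other large clusters were mixed in the same way. In WT the Ets1 cluster held 16 dense peaks higher and 16 lower and did not change as a sum (0.04, adjusted p = 0.277), and the S1pr4 cluster held 22 higher and 21 lower. The Irf8 cluster fell by 0.22 in HET and 0.30 in WT, with 18 and 17 dense peaks lower and 6 and 4 higher. Its strongest rise, at 1.56 in WT and 2.44 in HET, was a peak 30210 bp from Irf8. The H2bc6 cluster rose by 0.30 and 0.41, with 28 dense peaks higher and 7 lower in HET and 24 higher and 11 lower in WT. Lrch1 came nearest to 1 direction among the largest, with 29 of 39 dense peaks lower and 2 higher in HET, and 30 lower and 1 higher in WT. Eif2ak3 had 17 and 16 of 40 dense peaks lower while its promoter peak rose.

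**Figure D4:**
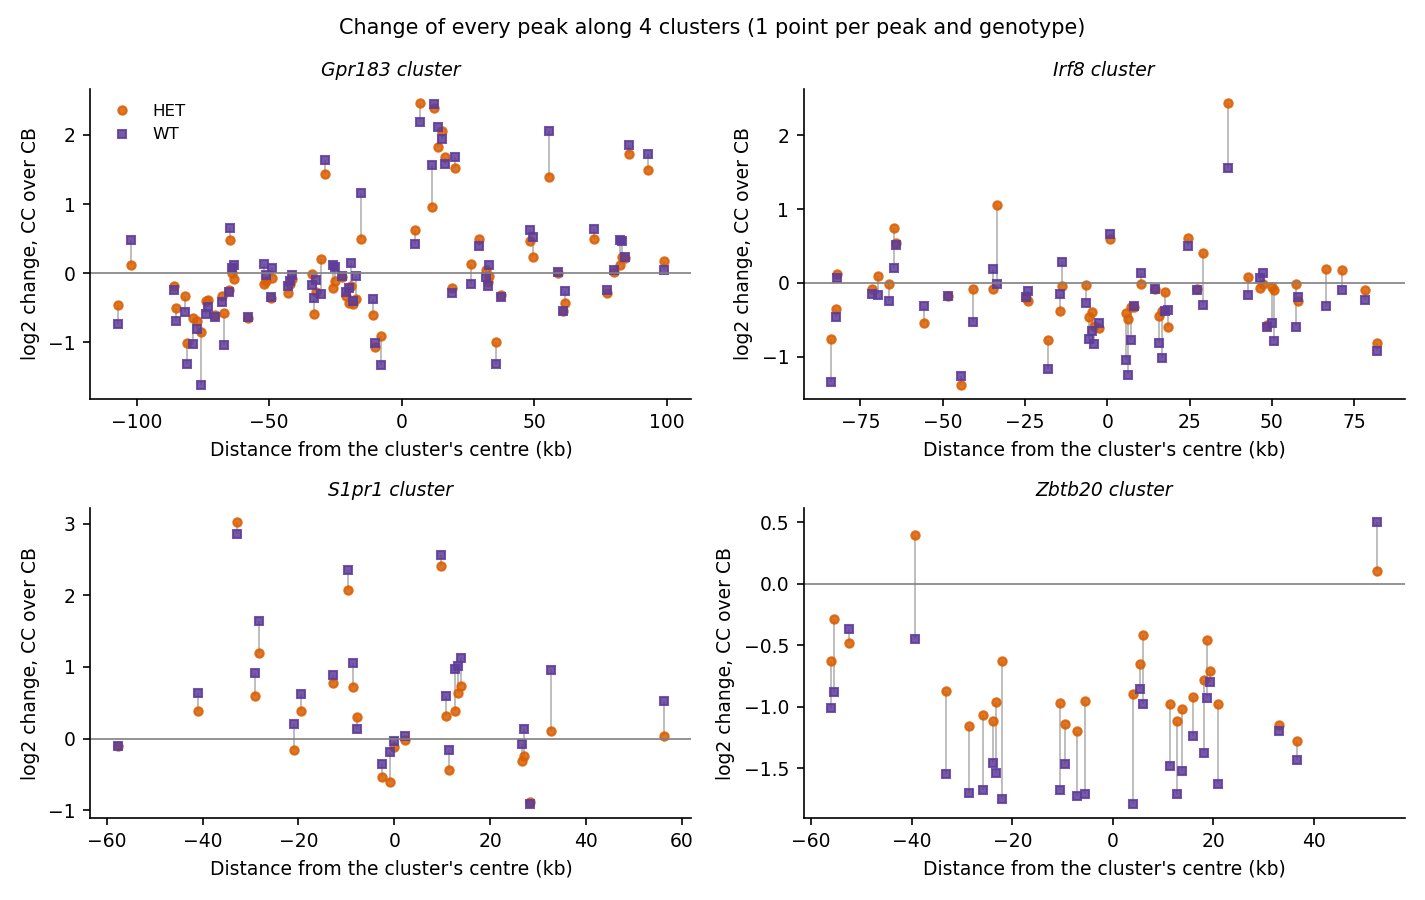
log2 change of CC over CB for every peak of the Gpr183, Irf8, S1pr1 and Zbtb20 clusters (1 point per peak for HET and WT, joined by a line) against the distance of the peak from the cluster's centre in kb. Gpr183 and S1pr1 peaks go both ways, and at the 22 dense peaks of the Zbtb20 cluster the HET point lies nearer to 0 than the WT point of the same peak. The Zbtb20 peaks share the same 16 libraries and are part of the cluster sum whose interaction is reported, so they are not separate evidence for it.

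In CC, heterozygous loss of Smarca4 went with changes in both directions. HET CC exceeded WT CC at 218 dense peaks and was below it at 138, together 3.02% of dense peaks beside 2.06% of all peaks (1.08% higher and 0.979% lower). Scaled by total counts in place of TMM, 277 were higher and 82 lower, which is 77.16% higher among the calls, against 61.24% with TMM. Of 9552 distal dense peaks 195 were higher and 93 lower, and of 1881 within 1 kb of a TSS 14 were higher and 44 lower. Peaks outside the clusters were divided in the same way, with 467 higher and 317 lower of 45866 distal peaks and 77 higher and 224 lower of 13268 near a TSS. Of clusters 75 were higher and 133 lower (17.6% beside 9.97% of all loci, with 3.27% higher and 6.7% lower, and 8.88% of loci outside), and 111 of the 208 showed no overlap between libraries. Clusters hold more counts than loci outside, with medians of 228.5 and 25.14 CPM, so smaller changes can pass in them. The median size of the log2 change, without its sign, was 0.079 in clusters and 0.136 in loci outside. The larger share called thus does not mean larger changes in clusters. With total counts 128 clusters were higher and 58 lower, the opposite majority, and the median log2 change of all loci was 0.007 with total counts and -0.029 with TMM.

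Named clusters that were higher in HET CC than in WT CC held Gcsam, Tox2, Gpr55, Zbtb20 and Fas, all of which were lower in CC than in CB. Gcsam had 102.2, 121.4, 97.22 and 147.4 CPM in HET CC and 73.92, 85.67, 81.46 and 93.86 in WT CC, without overlap (log2 0.49, SE 0.098, adjusted p = 0.00272). Tox2 had 83.25, 86.42, 82.88 and 79.78 CPM in HET CC and 51.97, 70.36, 54.12 and 65.67 in WT CC, again without overlap (0.46, SE 0.0873, adjusted p = 0.00149). Zbtb20 had 223.4, 251.7, 208.8 and 268.7 CPM in HET CC and 193.1, 178.1, 168.8 and 174.0 in WT CC (0.42, adjusted p = 0.000213). Its HET CC libraries all lay above the WT CC libraries, with replicates 2 and 4 highest. Gpr55, a lysophospholipid receptor (0.45, adjusted p = 0.00197), and Fas (0.47, adjusted p = 0.0034) were higher too, Fas with overlapping libraries. Side by side, the log2 changes of CC against CB in WT, which share the WT CC libraries with this comparison, were -1.44 for Gcsam, -1.49 for Tox2, -1.23 for Zbtb20, -1.13 for Gpr55 and -0.99 for Fas.

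Named clusters that were lower in HET CC held Sntb1, Prkcq, S1pr1 and others that were higher in CC than in CB. Sntb1 had the values given above, with all HET CC libraries below the WT CC libraries and replicates 2 and 4 lowest (log2 -0.52, SE 0.126, adjusted p = 0.00973). Prkcq had 129.3, 100.1, 124.6 and 107.7 CPM in HET CC and 142.3, 167.5, 163.2 and 141.2 in WT CC (-0.42, SE 0.0786, adjusted p = 0.0014). S1pr1 had 432.6, 361.8, 419.7 and 382.3 CPM in HET CC and 456.3, 515.5, 453.2 and 489.8 in WT CC (-0.27, SE 0.0461, adjusted p = 0.000625). Neither overlapped. S100a3 (-0.47, adjusted p = 0.00541), Fasl (-0.34, adjusted p = 0.000312), Sgk1 (-0.32, adjusted p = 0.000258), Nfkbia (-0.29, adjusted p = 0.00035) and Klf2 (-0.25, adjusted p = 0.00429) were lower as well. S100a3 did not pass when its dense peaks alone were summed (adjusted p = 0.683), and neither did Tox2 (0.0645).

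The summed T cell, NK cell and stromal marker values were each lower in all HET CC libraries than in all WT CC libraries, and HET CC libraries were deeper. Myeloid values, and those of erythroid and megakaryocyte markers, overlapped between the genotypes in CC. The calls depended on which library was left out: without HET CC replicate 2 those among dense peaks came to 0.569% and without replicate 4 to 0.731%, while without replicate 1 or 3 they came to 4.77% and 5.17%. Without WT CC replicate 2 they came to 1.21%. For clusters the figures were 7.87% without HET CC replicate 2 and 8.64% without replicate 4. With the 8 CC libraries fitted alone, 35 dense peaks (18 higher and 17 lower) and 95 clusters (36 higher and 59 lower) passed. In some clusters replicates 1 and 3 of a group lay apart from 2 and 4. Sntb1 had 80.15 and 71.74 CPM against 52.77 and 48.11 in HET CC. S1pr2 had 440.1 and 438.7 against 401.5 and 395.7 in WT CB. Cd86 in HET CC was not divided this way. The labels do not say what such libraries share, so the 4 libraries of a group may not be independent. The part of depth, these markers and these libraries in the result was not tested.

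By function, 5 of 17 positioning clusters, 6 of 14 memory clusters and 5 of 27 B identity clusters were lower in HET CC and 0, 1 and 2 were higher, beside 11.26% lower and 6.351% higher of all clusters. The B identity share is not far from that of all clusters. Of 16 germinal center clusters 4 were higher and 1 lower. The larger of both Foxp1 clusters, with 52 dense peaks, was lower in HET CC (-0.16, adjusted p = 0.00297), and a smaller one beside it with 2 dense peaks was higher (0.38, adjusted p = 0.00237), though not over its dense peaks alone (0.19, adjusted p = 0.394). Ets1 was lower (-0.13, adjusted p = 0.0137), as was H2bc6 (-0.16, adjusted p = 0.009), and both calls were lost without HET CC replicate 2, that of Ets1 also without WT CC replicate 4 and with total counts (adjusted p = 0.0716) and that of H2bc6 also without HET CC replicate 4. Of BAF clusters, Smarcc2 was higher (0.14, adjusted p = 0.0106), but not with the CC libraries fitted alone (adjusted p = 0.0713). Among single dense peaks, named ones with large differences were at Sema7a (1.35, adjusted p = 0.00279), Rest (1.30, adjusted p = 0.0055) and, downward, Apbb1ip (-0.82, adjusted p = 0.00202). The Sema7a peak at chr9:57973337-57973837 had 9.116, 6.992, 6.985 and 9.933 CPM in HET CC and 3.891, 2.061, 3.664 and 3.284 in WT CC.

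**Figure D5:**
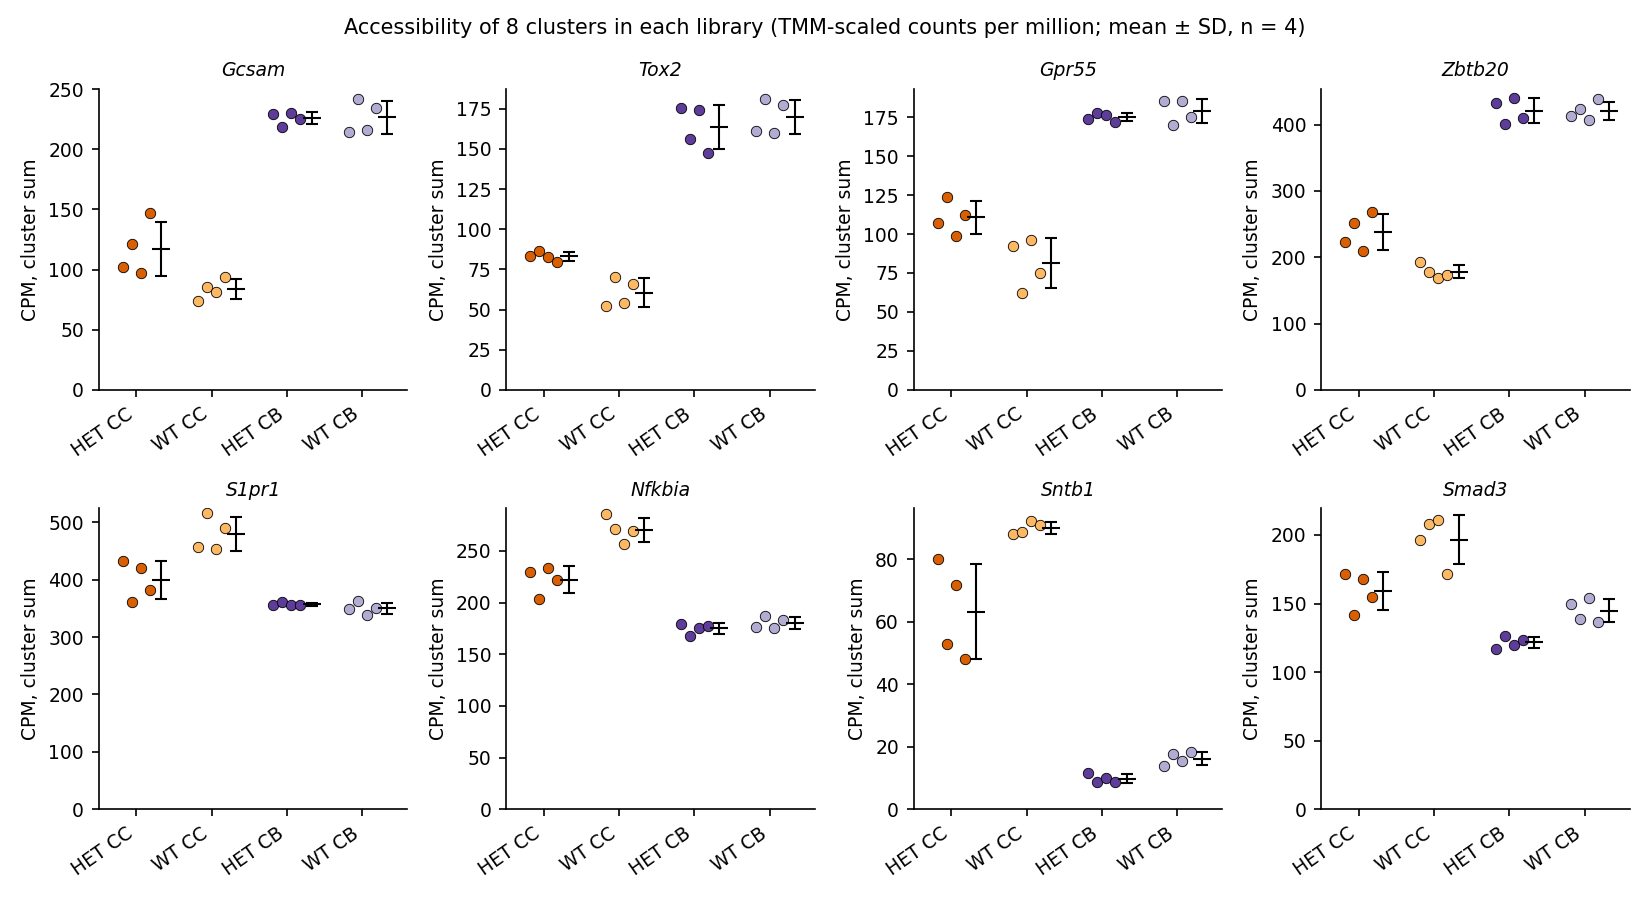
Accessibility of 8 clusters as CPM summed over their peaks, with points for the 4 libraries of each group and the mean ± SD beside them. HET CC lies above WT CC for Gcsam, Tox2, Gpr55 and Zbtb20 and below it for S1pr1, Nfkbia and Sntb1, while in CB the genotypes overlap for the first 6 clusters and HET CB lies below WT CB for Sntb1 and Smad3.

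In CB few dense peaks or clusters differed between the genotypes. Of dense peaks 0 were higher and 3 lower in HET CB than in WT CB by edgeR, 0.0255% beside 0.129% of all peaks (0.00243% higher and 0.127% lower). At an unadjusted p below 0.05 there were 198 higher and 555 lower, and DESeq2 called 14 higher and 50 lower. With the 8 CB libraries fitted alone 47 were higher and 64 lower. Of clusters 0 were higher and 6 lower (0.508% beside 1.06% of all loci, 0.0105% higher and 1.05% lower, and 1.14% of loci outside), with no overlap between libraries in all 6. At an unadjusted p below 0.05, 41 clusters were higher and 115 lower, and DESeq2 called 9 higher and 29 lower. With the CB libraries fitted alone the clusters went both ways, with 50 higher and 43 lower.

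Sntb1 was lower in all HET CB libraries than in all WT CB libraries, by the values given above (log2 -0.73, SE 0.119, adjusted p = 0.00132). Smad3, which relays transforming growth factor beta signals, had 116.9, 126.5, 119.6 and 123.6 CPM in HET CB and 149.9, 138.9, 154.0 and 136.2 in WT CB (-0.25, SE 0.0515, adjusted p = 0.0085). It was lower in HET CC too, with 171.7, 141.8, 168.2 and 155.1 CPM against 196.2, 207.9, 211.1 and 171.6 in WT CC (-0.31, adjusted p = 0.00261), where the libraries overlapped at the edge. Ubash3b, a phosphatase that restrains antigen receptors (-0.25, adjusted p = 0.0138), and Epb41l4b (-0.30, adjusted p = 0.0351) were lower in HET CB. Epb41l4b lost the call without any 1 of the 8 libraries, and Ubash3b without HET CB replicate 3 or 4 or WT CB replicate 2 or 4 (adjusted p up to 0.102). After libraries were thinned to the smallest total the log2 changes were -0.75 for Sntb1, -0.26 for Smad3, -0.23 for Ubash3b and -0.38 for Epb41l4b, and none of the 4 passed.

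The interaction asks whether the HET effect differs between CC and CB. Among dense peaks 26 had a higher and 4 a lower HET effect in CC (0.255% beside 0.159% of all peaks), and among clusters 18 had a higher and 7 a lower one (2.12% beside 0.935% of all loci). Over all peaks the interaction was higher in 0.128% and lower in 0.0316%, over all loci in 0.609% and 0.326%, and 0.767% of loci outside passed. Its median size, without the sign, was smaller in clusters (log2 0.069) than in loci outside (0.137), which hold fewer counts. The split of clusters depended on the scaling and the tool, with 72.0% higher among the calls with TMM, 90.91% with total counts (30 higher and 3 lower) and 47.22% with DESeq2 (34 higher and 38 lower). The highest were Tox2 (0.52, SE 0.103, adjusted p = 0.0136), Gcsam (0.50, SE 0.118, adjusted p = 0.0381), Fas (0.48, SE 0.117, adjusted p = 0.0429) and Gpr55 (0.48, SE 0.104, adjusted p = 0.026). Zbtb20 (0.42, SE 0.0771, adjusted p = 0.00762) passed under every alternative run for it, with adjusted p up to 0.0262. The lowest were Zc3hav1, an antiviral protein (-0.32, adjusted p = 0.0174), Fasl (-0.30, adjusted p = 0.0301), S1pr1 (-0.29, adjusted p = 0.0174) and Sgk1 (-0.27, adjusted p = 0.0336). In CB the same clusters had HET against WT values between -0.06 for Tox2 and 0.03 for S1pr1 and Zc3hav1, and none passed. Without HET CC replicate 2 the clusters called came to 0.423%, without HET CC replicate 4 to 0.508% and without WT CC replicate 2 to 0.593%, while without HET CC replicate 1 or 3 they came to 5.08% and 6.10%. Gcsam and Fas lost the call without 9 and 10 of the 16 libraries in turn. Sgk1 and Fasl also lost it without several single libraries, HET CC replicate 2 among them (adjusted p = 0.102 and 0.0738). With total counts neither passed (0.0612 and 0.055). Gpr55, S1pr1 and Zc3hav1 each lost it without at least 1 library.

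Inside the S1pr1 cluster lies a dense peak that was named for its low interaction. It is part of the cluster sum and shares the same 16 libraries, so it is not separate evidence for the S1pr1 interaction. The peak at chr3:115714642-115715142 inside S1pr1 had 37.84, 25.59, 43.99 and 34.61 CPM in HET CC, 50.58, 54.76, 43.41 and 52.26 in WT CC, 26.19, 27.28, 27.10 and 27.13 in HET CB and 25.18, 26.23, 24.51 and 26.78 in WT CB. The HET effect was -0.52 in CC (adjusted p = 0.00562) and 0.07 in CB (adjusted p = 0.892), with an interaction of -0.59 (adjusted p = 0.0301). HET CC replicate 3 reached the range of WT CC, so the libraries overlapped. High interactions of named single dense peaks were at Sema7a (1.43, adjusted p = 0.0146), Jarid2 (1.34, adjusted p = 0.0208), Rest (1.32, adjusted p = 0.0301) and in the Socs1 cluster (1.25, adjusted p = 0.0181).

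The promoters inside clusters were compared with promoters of peaks outside, as a description of sequence. RefSeq windows with at least 150 bases in a dense peak numbered 1040, of 921 genes, and had a median G and C content of 60.7% and a median observed over expected CpG ratio of 0.713. The 8980 windows on peaks outside had 62.0% and 0.787, and all 32851 windows 52.7% and 0.384. SP/KLF matches stood in 62.0% of dense windows, 67.1% of outside windows and 35.7% of all windows, and ETS matches in 25.4, 34.1 and 16.9%. The octamer ATGCAAAT, the site of the factors Oct-1 and Oct-2, stood in 3.46% of dense windows, 1.38% of outside windows and 1.74% of all windows, and GAGGAAGT, a form of the PU.1 site, in 5.10, 3.40 and 3.20%. Each motif was searched on both strands on its own, so that matches of different motifs can overlap.

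Among dense promoter windows 486 lay on peaks that were higher in WT CC than in WT CB and 192 on peaks that were lower. The windows that rose held SP/KLF matches in 69.8%, CCAAT boxes in 42.6% and a CRE in 5.14%, and the windows that fell in 49.5, 36.5 and 1.56%. The 362 dense windows on peaks that were not called held them in 58.3, 29.3 and 1.38%. Windows that fell thus did not have fewer CCAAT boxes or CREs than those not called. The median observed over expected CpG ratio was 0.777 in the windows that rose, 0.58 in those that fell and 0.654 in those not called. CACGTG, the E-box bound by MYC, stood in 8.02% of the windows that rose, 13.0% of those that fell and 8.56% of those not called. The S1pr2 window shown above is 1 of the windows that fell and holds a CRE.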

How the data were processed

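The deposited file is a table of counts per peak for 16 libraries, 4 in each of 4 groups, with peaks of 501 bp. The build is mm10, and BWA, FastQC, R 4.2.1 and deepTools were used, per the submitters' processing notes; the peak caller, and whether libraries were pooled for it, are not given in the sources used here. All 82188 peaks were fitted together with edgeR 4.0.16 (R 4.3.3, limma 3.58.1), TMM scaling, a quasi-likelihood test over the 4 groups and Benjamini-Hochberg adjustment. The low-count filter removed 0 peaks, and the common biological coefficient of variation was 8.01%. Counts of a cluster were summed and fitted the same way with loci outside, 9522 in all. Shares of counts were compared by exact permutation over libraries. The fits were tested on simulated data.

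Clusters and peaks were named by a rule: the 10 clusters with most dense peaks, the 4 highest and 4 lowest called clusters and dense peaks of each comparison, up to 4 members of each gene list inside clusters, and fixed genes; a few of these are not reported here. The members and lists were chosen with earlier results of these data known. RefSeq promoter windows have no entries on 1 chromosome, which left 2464 peaks without a distance to a TSS. Alternatives were total counts as scaling, DESeq2 1.42.0, filters, thinning, replicate blocks, other density rules and leaving out each library. Confidence intervals and counts cover counting error only.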

Additional observations from a re-analysis of the deposited data

Results flagged for a closer look

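In 5 of 320 groups of 4 libraries, 1 library stood far from the other three, where chance gives about 1 in 20. WT CC replicate 4 was high in the Smarca4 cluster, at 219.2 CPM, and in the Fas cluster, at 110.5 CPM. WT CB replicate 1 was low in the cluster near Thoc3, at 159.9 CPM. HET CB replicate 1 was low in the Socs1 cluster, at 421.9 CPM, and HET CC replicate 3 was low in the Arid1b cluster, at 72.68 CPM.

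The HET effect differed between CC and CB by edgeR's interaction test in 11 named clusters. It was more positive in CC for Tox2 (log2 0.52), Gcsam (0.50), Gpr55 (0.48), Fas (0.48), Zbtb20 (0.42) and the smaller Foxp1 cluster (0.41). It was more negative in CC for Zc3hav1 (-0.32), Fasl (-0.30), S1pr1 (-0.29), Sgk1 (-0.27) and Nfkbia (-0.25). The share of counts in cluster windows also had an interaction, of 0.4285 points. All of these but Zbtb20 and Tox2 lost the threshold without at least 1 single library, and Tox2 lost it after thinning (adjusted p = 0.0706) and over its dense peaks alone (0.206).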

How the results depend on the processing

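The percent of members called between CC and CB stayed within 1.5 times of 62.4 (HET) and 62.9 (WT) for dense peaks and of 74.4 and 77.3 for clusters under every alternative run; single named clusters that turned are given below. The percent called between genotypes did not. For HET CC against WT CC, the percent of dense peaks called, 3.02, was 7.47 with DESeq2, 1.59 thinned, 0.305 with the CC libraries alone and 0.569 to 5.17 leaving out 1 library; that of clusters, 17.6, was 8.04 with the CC libraries alone and 7.87 to 25 leaving out 1. For HET CB against WT CB, dense peaks called, 0.0255, came to 0.544 with DESeq2, 0.943 with the CB libraries alone, 0.0 thinned, 0.0 with the replicate block, 0.0 for at least 15 other peaks, 0.0499 for a 15 kb window and 0.0 to 0.0255 leaving out 1; clusters, 0.508, came to 1.10 with total counts, 3.22 with DESeq2, 0.0 thinned, 7.87 with the CB libraries alone and 0.169 to 0.423 leaving out 1. For the interaction, dense peaks called, 0.255, came to 0.569 with total counts, 2.75 with DESeq2, 0.54 at a mean of at least 5 CPM, 0.127 with the replicate block, 0.034 with the replicate block within genotype, 0.0345 thinned, 0.465 for at least 15 other peaks, 0.449 for a 15 kb window and 0.017 to 0.935 leaving out 1; clusters, 2.12, came to 6.10 with DESeq2, 0.593 thinned, 1.35 without the strongest peak of each locus and 0.423 to 6.10 leaving out 1. With total counts the interaction split of dense peaks was 64 higher and 3 lower, against 26 and 4 with TMM. The cause was not tested.

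The share of counts in windows differed between HET CC and HET CB by -3.15 points without peaks near gene ends (adjusted exact p = 0.07143), by -2.20 with the replicate block (exact p = 0.125, the smallest 4 pairs allow) and by -2.23 to -2.16 leaving out 1 library. For WT CC against WT CB it was -3.41, -2.63 with the block and -2.71 to -2.55. The interaction was 0.265 without peaks near gene ends and 0.343 to 0.51 leaving out 1. HET CB against WT CB passed at -0.27 and -0.312 points without the weakest 20% and 40% of peaks, alternatives chosen after seeing the data, and was -0.322 to -0.155 leaving out 1. Signs turned over dense peaks alone for Basp1 in HET CC against WT CC (-0.16), for CC against CB in Jchain (0.39 in HET, 0.52 in WT), Smarca4 (0.45, 0.48) and Nfkbia (-0.42, -0.15), and for the promoter share in HET CB against WT CB without HET CB replicate 1 (0.0041), WT CB replicate 1 (0.011) or WT CB replicate 3 (0.0103), where the lowest value was -0.0285 and the full one -0.00872. Same-numbered libraries correlated by -0.154 to 0.071 in their deviations, all under 0.1, and the main tests did not pair libraries by number. These correlations cannot exclude pairing, since counting noise at the CC counts given below lowers them. All 4 WT CC libraries, and HET CC replicates 1 and 4, correlated best with their own number in CB, a hint from the data and not the design. HET CC replicate 2 correlated best with HET CB replicate 4, and HET CC replicate 3 with HET CB replicate 1. A peak had a median of 22 to 50 counts in CC libraries and 215 to 347 in CB libraries, so single peaks are measured less precisely in CC.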
